A study of Mus musculus with 88 samples.

Results

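Potassium channel genes, whose mouse symbols begin with Kcn, were followed in 3 brain regions of mice that had or had not been exposed to chronic social defeat stress (CSDS). Members were the genes with such a symbol in the GENCODE M21 annotation (GRCm38), apart from Kcna1, Kcna2, Kcne2, Kcnj13 and the noncoding Kcnq1ot1, Kcnmb4os1 and Kcnmb4os2, which were left out of the set. This gave 90 genes, of which 78 were measured in at least 1 region and 71 in all 3. In the medial prefrontal cortex (mPFC) 74 members were among 18946 genes measured, in the ventral hippocampus (vHPC) 76 of 19559, and in the bed nucleus of the stria terminalis (BNST) 74 of 17515. The 12 members measured in no region were Kcna7, Kcna10, Kcne1, Kcne3, Kcnj1, Kcnj15, Kcnk7, Kcnk16, Kcnk18, Kcnmb3, Kcnn4 and Kcnv2. Kcnj5, Kcnk5, Kcnmb1 and Kcnrg were missing from the mPFC, Kcnk5 and Kcnk15 from the vHPC, and Kcne4, Kcnk15, Kcnq1 and Kcnrg from the BNST.

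All mice were males of 8 weeks from 2 inbred strains, C57BL/6Crl (B6) and DBA/2Crl (D2). Defeated mice met an aggressive mouse repeatedly, whereas controls were not defeated. In a social avoidance test, the time spent near an unfamiliar mouse was divided by the time spent there without it. Defeated mice with a ratio more than 1 SD below the mean of same-strain controls were called susceptible, and the others resilient. The border therefore differed between the strains. Brains were taken 6 to 8 days after the last defeat, and each of the 88 libraries was total RNA of 1 region of 1 mouse. The mPFC had 6 mice in every B6 group (control, resilient, susceptible), 6 D2 controls and 8 D2 susceptible mice. The vHPC had 6 controls of each strain, 8 resilient and 3 susceptible mice of B6, and 5 susceptible mice of D2. Each BNST group was 5 mice, except that only 3 resilient D2 mice were sequenced, and neither other region had resilient D2 mice. Replicates were separate mice, 7 of which were sampled in the mPFC as well as the vHPC.

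Potassium channels let potassium ions cross the membrane and so set the resting potential, shape the action potential and limit firing. Voltage-gated alpha subunits (Kcna to Kcnd, Kcnq and Kcnh) open on depolarization, calcium- and sodium-activated channels follow activity, and inward rectifiers (Kcnj) and 2-pore channels (Kcnk) hold the membrane near rest. Silent subunits (Kcnf, Kcng, Kcns, Kcnv) and auxiliary subunits (Kcnab, Kcnip, Kcne) make no channel of their own but change the channels that they join. Neurons express most of these genes, while Kcnj10 (Kir4.1) and its partner Kcnj16 (Kir5.1) carry the inward current with which astrocytes clear potassium after firing, and Kcnj10 is also found in oligodendrocytes.

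Total counts in the BNST ranged from 11825757 to 25793910 reads per library. The mPFC and vHPC values were deposited as log2 counts per unit of library size (CPM), which do not show their depth. The regions were prepared with different kits and normalized separately, so region and kit cannot be told apart and no test was made between regions. Cortical excitatory markers summed to log2 CPM of 8.27 to 9.30 in the mPFC but were higher in the vHPC (9.40 to 9.83), so they do not set the mPFC apart from it. Hippocampal markers summed to 9.97 to 10.42 in the vHPC, although this list reached 9.70 to 10.68 in the BNST too. In the BNST the cortical markers ranged from 3.47 to 9.62 between libraries, and the striatal markers from 8.91 to 12.46. The library of susceptible B6 replicate 3 in the BNST stood apart, with the highest striatal marker sum (12.46) and the lowest normalization factor (0.656).

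Kcnj10 and Kcnj9 (GIRK3, a subunit of G protein-gated inward rectifiers) are neighbours on the genome. Their promoters are shown because both genes were higher in the vHPC of D2 than of B6 controls, and of defeated than of control B6 mice. They start 11888 bases apart on chromosome 1 and are read in opposite directions. The RefSeq windows around the start (GRCm38.p6) are written 5′ to 3′ on each gene's strand, with chr1:172340960-172341259 (plus strand) for Kcnj10 and chr1:172329273-172329572 (minus strand) for Kcnj9. Capitals mark matches on either strand to the GC box (GGGCGG), the CCAAT box (CCAAT) and the TATA motif (TATAAA), none of which overlap.
Kcnj10: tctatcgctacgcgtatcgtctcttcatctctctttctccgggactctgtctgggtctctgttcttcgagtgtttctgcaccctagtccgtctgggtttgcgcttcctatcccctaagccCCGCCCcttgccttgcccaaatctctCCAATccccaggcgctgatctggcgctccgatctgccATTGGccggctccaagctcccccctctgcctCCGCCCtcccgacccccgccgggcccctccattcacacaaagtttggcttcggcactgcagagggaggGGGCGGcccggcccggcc
Kcnj9: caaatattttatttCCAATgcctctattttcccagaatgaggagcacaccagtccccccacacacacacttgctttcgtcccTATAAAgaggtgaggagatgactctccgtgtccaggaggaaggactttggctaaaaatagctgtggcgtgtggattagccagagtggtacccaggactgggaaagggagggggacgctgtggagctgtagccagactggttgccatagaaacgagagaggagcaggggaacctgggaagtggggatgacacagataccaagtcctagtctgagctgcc
The Kcnj10 window held 3 GC boxes and 2 CCAAT boxes in 63.7% GC, and the Kcnj9 window held 1 CCAAT box and 1 TATA motif in 52.3% GC. Of all 32817 promoter windows of that length, 35.6% held a GC box, 37.4% a CCAAT box and 13.6% a TATA motif. These are matches in the reference genome, and the D2 sequence was not read.

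In control B6 mice, levels per kilobase of exon were compared between genes within a region. In the mPFC the highest member was Kcnj3 (GIRK1), at a level of 5.74 ± 0.07 log2 CPM per kilobase (SD, n = 6), followed by Kcnk1 (TWIK-1, a 2-pore channel) at 5.296 ± 0.076. Kcnj4 (5.24 ± 0.08), Kcnv1 (5.21 ± 0.06) and Kcnj9 (5.21 ± 0.18) came next and did not differ from Kcnk1 by more than their spread. In the vHPC Kcnab2, the main beta subunit of Kv1 channels, stood above all other members at 6.69 ± 0.07, and Kcnk1 reached 5.35 ± 0.11. The BNST was led by Kcnip2 (6.01 ± 0.53, n = 5) and Kcnd2 (5.76 ± 0.32), which form the A-type current together.

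Summed over members, inward rectifiers took the largest share of the per-kilobase level in the mPFC, 20.0% ± 0.2 (SD) in B6 and 20.8% ± 0.5 in D2 control mice. In the vHPC Kcnj genes took 15.6% ± 0.4 in B6 and 17.9% ± 0.4 in D2 controls, and the values of the 2 strains did not overlap. Kcnab genes took 15.4% ± 0.5 and 13.9% ± 0.4, and Kcnip genes 8.89% ± 0.33 and 7.02% ± 0.21, again without overlap. Fast Kv3 channels (Kcnc) took 6.04% ± 0.17 and 7.2% ± 0.25 of the vHPC level and 3.58% ± 0.21 and 4.16% ± 0.25 of the mPFC level in B6 and D2 controls. In the BNST the Kcnc share was 9.69% ± 2.69 in B6 controls, and the strains overlapped in all of these shares. Using the longest transcript in place of all exons put Kcnab (18.2%) above Kcnj (13.8%) in the vHPC of B6 controls.

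**Figure D1:**
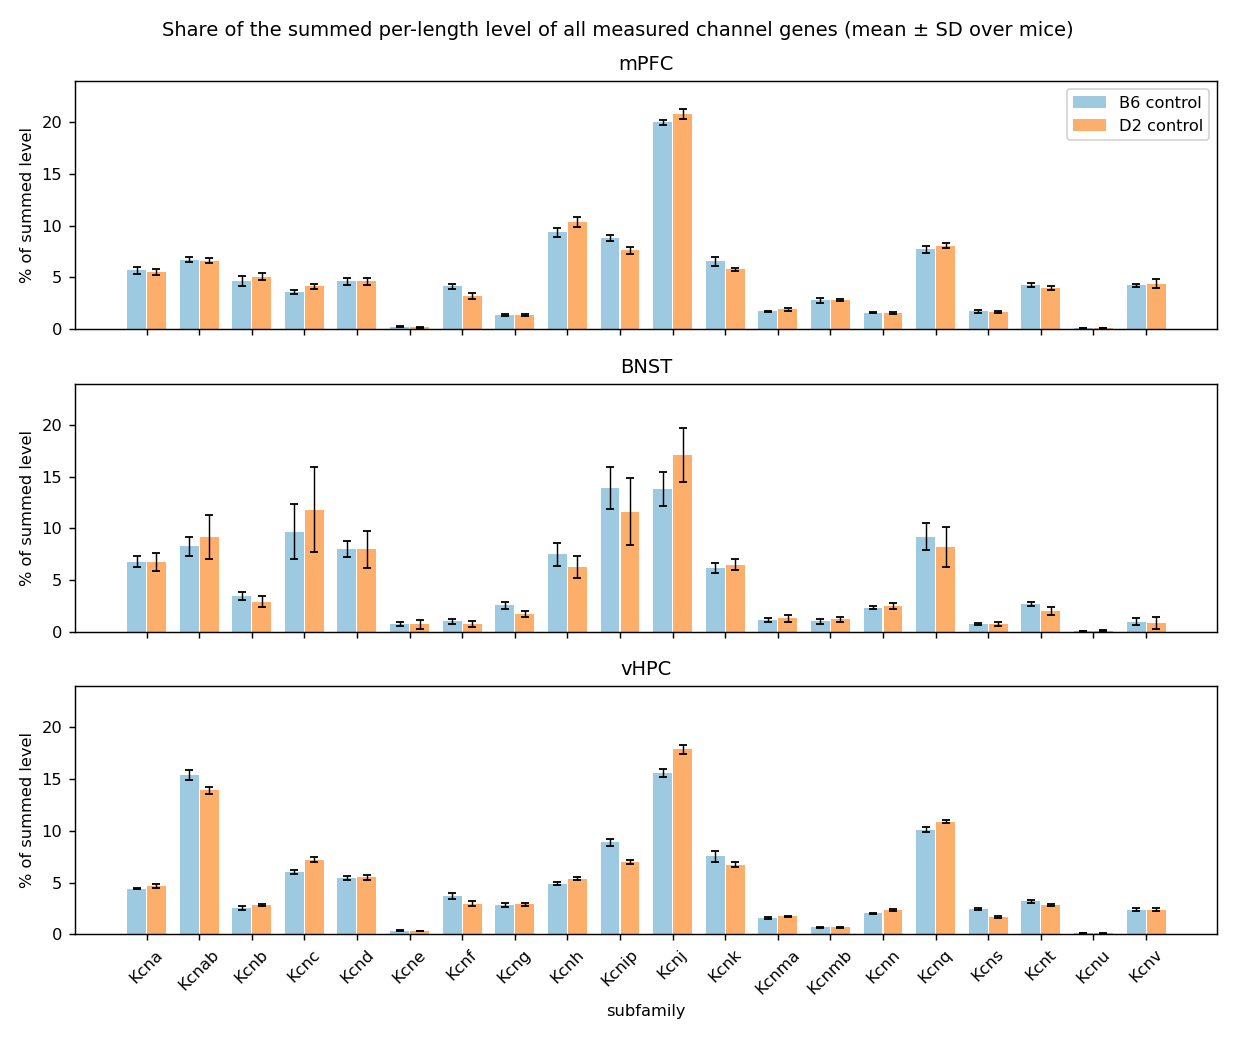
Share of the summed per-kilobase level of the measured channel genes (y axis, percent) by subfamily (x axis) in control mice of each region. Bars are means and whiskers SDs over 6 mice (mPFC, vHPC) or 5 mice (BNST). Kcnj genes hold 20.0% in the mPFC of B6 controls and Kcnab genes 15.4% in the vHPC.

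Some members held a very different place in the family from region to region. Relative to the median of the 71 members measured in all regions, the level of Kcnh4, a slowly opening Elk channel, was 0.82 above in the BNST but 2.96 and 3.58 below in the mPFC and vHPC (log2). Kcnj10 was 2.19 above the median in the BNST, 0.65 above in the mPFC and 0.27 below in the vHPC. Kcns3 went the other way, 4.11 below in the BNST and 0.23 above in the vHPC. These levels describe B6 controls and carry no test.

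To learn how the strains differ before any stress, D2 controls were compared with B6 controls. Adjusted p-values are Benjamini-Hochberg values over all genes of a region, from limma for the mPFC and vHPC and from the edgeR quasi-likelihood test for the BNST, and genes under 0.05 were called. In the mPFC 18 of 74 members (24.3%) were called, against 27.8% of all genes. Of these, 15 were higher in D2 (20.3% of members, 13.4% of all genes) and 3 were lower (4.05% of members, 14.4% of all genes). The median log2 fold change was 0.06 over the members and 0.00 over all genes. In the vHPC 48 of 76 members (63.2%) were called, against 59.3% of all genes, with 24 higher (all genes 30.2%) and 24 lower (all genes 29.1%). In the BNST none of 74 members was called by edgeR, against 2.51% of all genes, although 15 (20.3%, all genes 13.4%) had an unadjusted p under 0.05 and DESeq2 called 3. Controls of both strains were never prepared in the same vHPC library set. A fit with the set therefore links them only by way of sets that held defeated mice. With the set in the model 6 of the 48 vHPC members stayed called, among them Kcnj9, Kcnj10, Kcnj11, Kcnk12 and Kcnk13, and the other vHPC strain differences named here were not called, while the median standard error over all genes grew 3.56 times. In the mPFC, where 4 of 5 sets held controls of both strains, 16 of 18 stayed called.

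**Figure D2:**
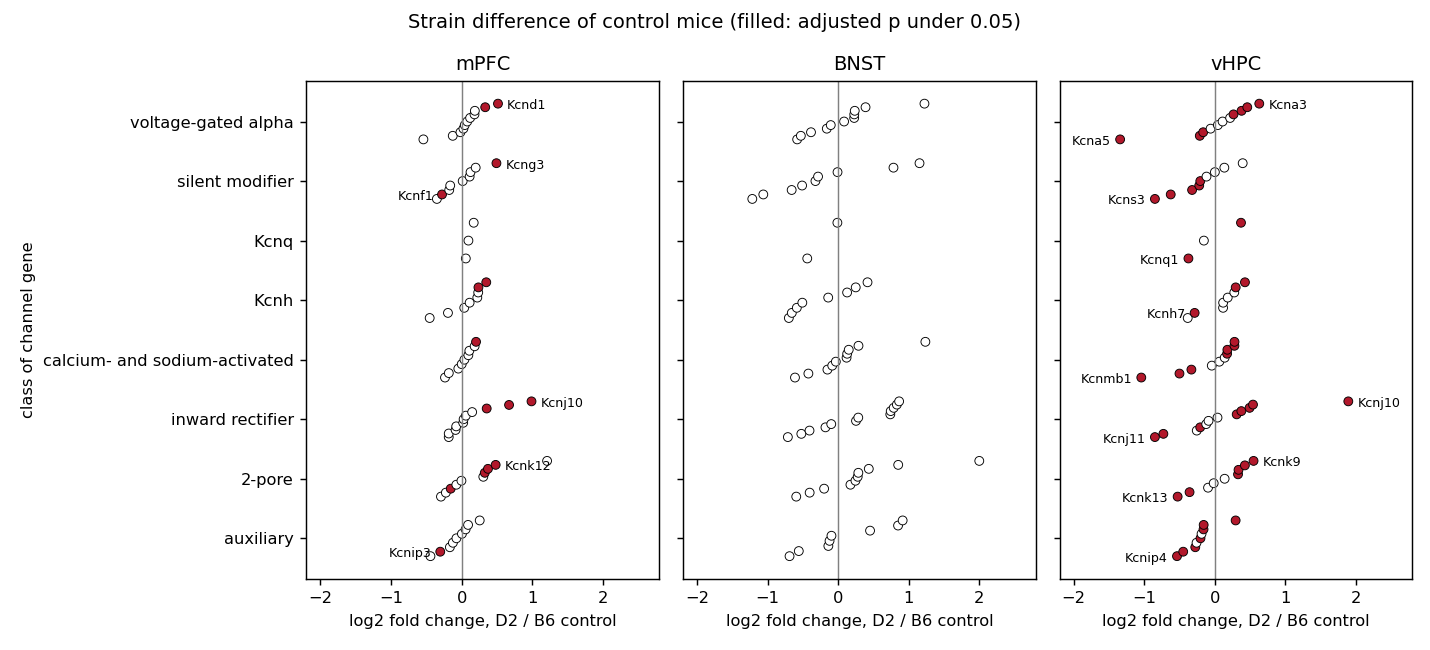
Log2 fold change of D2 against B6 control mice (x axis) for the members reported here by class (y axis), in 6 and 6 mice (mPFC, vHPC) or 5 and 5 mice (BNST). Filled points have an adjusted p under 0.05, and some of these are named. Kcnj10 lies farthest to the right in the vHPC (1.89) and among the filled points of the mPFC (0.99).

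Among inward rectifiers, Kcnj10 (chromosome 1, 172341210 to 172374085, GRCm38) had the largest strain difference of all called members in the mPFC and in the vHPC. In the mPFC B6 controls ranged from 5.61 to 6.10 log2 CPM with a median of 5.88, and D2 controls from 6.66 to 7.04 with a median of 6.90. The D2 level was 0.99 ± 0.10 higher on the log2 scale (SE, limma adjusted p = 9.35e-09), and the groups did not overlap. In the vHPC B6 controls ranged from 4.71 to 4.97 (median 4.85) and D2 controls from 6.44 to 7.02 (median 6.66), again without overlap. The vHPC difference was 1.89 ± 0.11, a 3.71-fold higher level in D2 (limma adjusted p = 1.13e-13), and it was 2.196 ± 0.413 with the library set in the model (limma adjusted p = 0.00261). In the BNST B6 controls had values of 7.12, 7.171, 7.85, 7.63 and 8.47, and D2 controls 7.68, 8.12, 8.42, 8.80 and 8.999. The BNST strains overlapped, and the difference of 0.74 ± 0.30 was not called (edgeR adjusted p = 0.253).

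Most astrocyte markers differed the other way. Of 6 astrocyte markers in the vHPC, only Gja1 was higher in D2 (0.47, log2) and the other 5 were lower, among them Gfap (-0.97) and Aqp4 (-0.25), with a list median of -0.23. In the mPFC 3 of the 6 were lower and none higher (all genes 14.4% and 13.4%, and in the vHPC 29.1% and 30.2%). The summed astrocyte level was 12.43 to 12.56 in B6 and 12.24 to 12.36 in D2 controls of the vHPC. Oligodendrocyte markers were lower in D2 in 6 of 6 genes in both the mPFC and the vHPC, with list medians of -0.94 and -1.38. In tissue samples like these, fewer cells of a type and less RNA per cell cannot be told apart.

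The partner of Kcnj10, Kcnj16, was 0.54 ± 0.05 higher in D2 in the vHPC (limma adjusted p = 6.67e-10), where B6 controls ranged from 4.38 to 4.61 (median 4.53) and D2 controls from 4.99 to 5.17 (median 5.02). In the mPFC the Kcnj16 difference was 0.06 ± 0.08. Kcnj9 was 0.49 ± 0.06 higher in the vHPC of D2 (adjusted p = 6.94e-08, limma), and its mPFC difference of 0.15 ± 0.09 was not called. Kcnj6 (GIRK2) was higher in D2 in the mPFC (0.36 ± 0.09) and Kcnj3 lower in the vHPC (-0.21 ± 0.04). The pore subunits of ATP-sensitive channels were lower in D2 in the vHPC, Kcnj11 by -0.85 ± 0.07 and Kcnj8 by -0.73 ± 0.11. In all, 5 of 12 Kcnj genes were higher and 3 lower in the vHPC (all genes 30.2% and 29.1%). In the mPFC 3 of 11 were higher and none lower (all genes 13.4% and 14.4%).

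Of the M-current genes, Kcnq5 was higher in the vHPC of D2 controls (0.37 ± 0.04), while Kcnq3 (-0.16 ± 0.07) was not called there (limma adjusted p = 0.0502).

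Of the 13 voltage-gated alpha subunits from Kcna to Kcnd, 4 were higher in D2 and none lower in the mPFC (all genes 13.4% and 14.4%). In the vHPC 6 were higher and 3 lower (all genes 30.2% and 29.1%). Kcnc1 (Kv3.1) and Kcnc4 were higher in the vHPC (0.38 ± 0.08 and 0.46 ± 0.08), and Kcnc2 in the mPFC (0.34 ± 0.07). Kv3 channels close fast enough to let neurons fire at high rates. Kcna3 was 0.63 ± 0.11 higher in the vHPC (limma adjusted p = 1.83e-05), where B6 controls ranged from 3.04 to 3.33 and the lowest D2 control was at 3.59. The sparse Kcna5 was lower in D2 in the vHPC (-1.34 ± 0.13).

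Subunits that modify other channels leaned to lower levels in D2 in the vHPC, but not as a class in the mPFC. In the vHPC all 4 Kcnip genes, which bind Kv4 channels and set the A-type current, were lower, from -0.54 ± 0.06 for Kcnip4 to -0.16 ± 0.05 for Kcnip1. Auxiliary genes as a class were lower in 6 and higher in 1 of 9 there (all genes 29.1% lower and 30.2% higher). Silent subunits were lower in 5 and higher in none of 9, among them Kcns3 (-0.85 ± 0.09) and Kcnf1 (-0.32 ± 0.07). In the mPFC Kcnip3 (-0.30 ± 0.08) and Kcnf1 (-0.28 ± 0.07) were also lower, but the other 3 Kcnip genes were not called. Silent subunits were lower in 1 and higher in 1 of 9 there, the higher one being Kcng3, and auxiliary genes were lower in 1 of 9. Over all genes of the mPFC 14.4% were lower and 13.4% higher. Kcnd2, a pore that Kcnip proteins join, was also lower in the vHPC of D2 controls (-0.17 ± 0.04).

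Among 2-pore channels, Kcnk1 (chromosome 8) was lower in D2 in the mPFC (-0.15 ± 0.06, limma adjusted p = 0.04, and 0.0712 with the library set in the model) and in the vHPC (-0.36 ± 0.05, limma adjusted p = 6.13e-07). The 2-pore genes Kcnk3, Kcnk9 and Kcnk12 were higher in both regions, Kcnk9 (TASK-3) by 0.33 ± 0.12 and 0.55 ± 0.07. Kcnk13, a microglial leak channel, was lower in the vHPC (-0.53 ± 0.07), and 4 of 5 microglia markers were lower with it (all genes 29.1%). The BK channel gene Kcnma1 was slightly higher in both regions (0.20 ± 0.07 and 0.17 ± 0.05).

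Of the 18 members called in the mPFC, 14 (77.8%) were among the 48 called in the vHPC (29.2% of these), 13 in the same direction. Over all genes, 70.8% of the 5265 called in the mPFC were called in the vHPC (32.1% of these). Kcng3 was the exception, higher in D2 in the mPFC (0.49 ± 0.12) and lower in the vHPC (-0.22 ± 0.06). Of the control mice, 3 gave libraries of both regions.

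The next question was how the vHPC of B6 mice differed after defeat. In susceptible against control mice 37 of 76 members (48.7%) were called, against 40.6% of all genes, with 21 higher (27.6% of members, 20.5% of all genes) and 16 lower (21.1% of members, 20.1% of all genes). In resilient against control mice 10 members (13.2%) were called, 3 higher (3.95% of members, 4.94% of all genes) and 7 lower (9.21% of members, 5.9% of all genes). In susceptible against resilient mice 22 (28.9%) were called, against 27.6% of all genes, with 15 higher (19.7% of members, 14.1% of all genes) and 7 lower (9.21% of members, 13.6% of all genes). The median log2 fold change over members was 0.065, 0.005 and 0.056 in these comparisons, and -0.010, 0.001 and -0.012 over all genes. Susceptible and resilient mice were set against the same controls. None of the vHPC library preparation sets combined control with defeated B6 mice, and with the set in the model no member was called in these comparisons, while the standard errors grew 1.5 to 4.01 times (median over all genes). For defeated against control mice, group and preparation set cannot be told apart here. Only 1 set held both resilient and susceptible B6 mice.

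**Figure D3:**
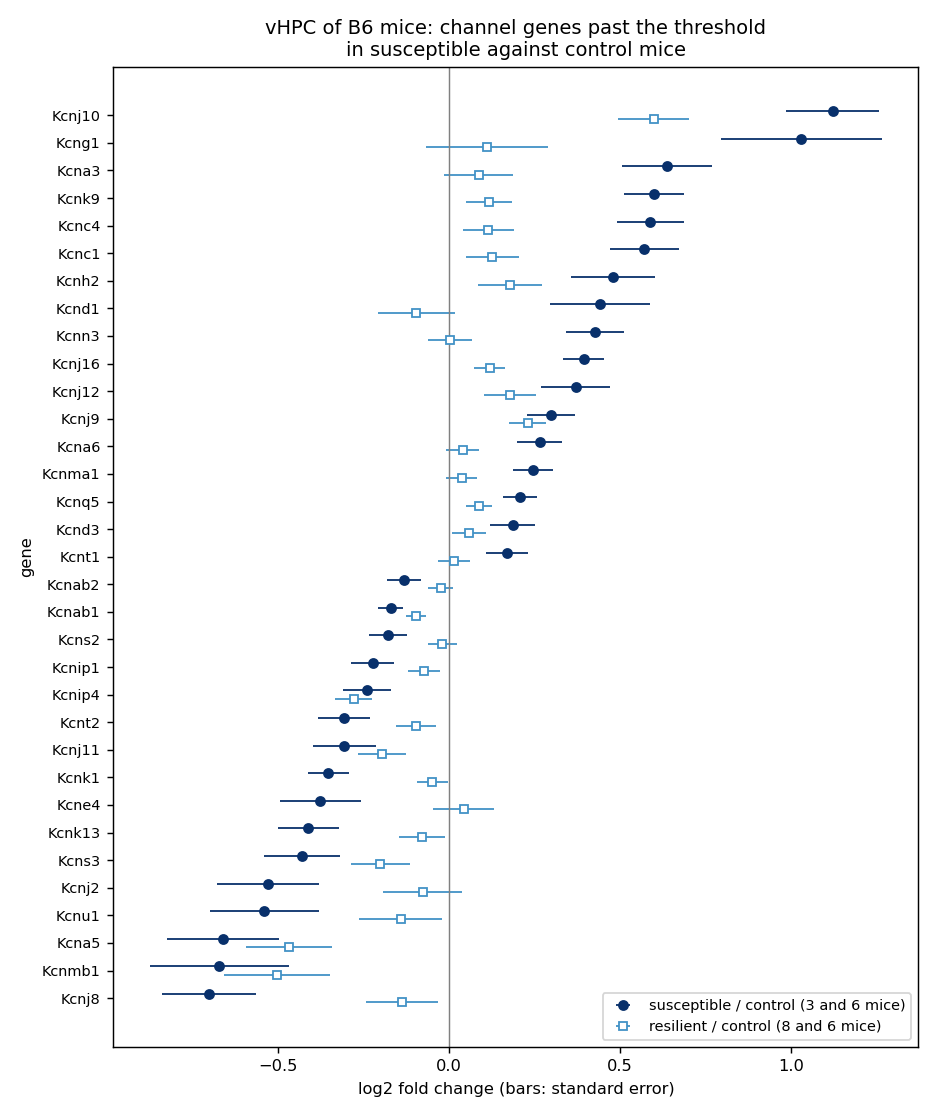
Log2 fold change (x axis) with its standard error for 33 of the 37 channel genes called in susceptible against control B6 mice in the vHPC (y axis). Filled points are susceptible and open squares resilient mice, each against the same 6 controls. Kcnj10 lies farthest to the right in both comparisons, and Kcnj8 is lowest in susceptible mice (-0.70).

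Kcnj10 was also the member that rose most. Control, resilient and susceptible B6 mice had vHPC values of 4.71 to 4.97 (median 4.85), 5.204 to 5.87 (median 5.31) and 5.79, 6.29 and 5.797. All 11 defeated mice were above every control, and the susceptible mice overlapped the resilient ones. The level was 0.60 ± 0.10 (1.51-fold) higher in resilient mice than in controls (limma adjusted p = 0.000231) and rose from a mean of 4.84 in controls to 5.96 in susceptible mice (SE of the difference 0.14, limma adjusted p = 8.21e-07), and 0.52 ± 0.13 higher in susceptible than in resilient mice (limma adjusted p = 0.00804). D2 controls (median 6.66) and susceptible D2 mice (median 7.24) followed in that order, without overlap with each other or with any B6 mouse. In sequencing set 1 alone, which held 2 susceptible mice and all 6 controls, the susceptible difference was 0.955 (limma adjusted p = 0.000336). With the library set as covariate it was 1.39 (limma adjusted p = 0.152).

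Of the other inward rectifiers, Kcnj16 rose in susceptible mice by 0.39 ± 0.06, with values of 4.85, 4.88 and 5.00 above the 4.38 to 4.61 of controls, and its change in resilient mice, 0.12 ± 0.05, was not called. Kcnj9 rose in both, by 0.23 ± 0.05 in resilient and 0.30 ± 0.07 in susceptible mice. Kcnj8 (Kir6.1), which forms the ATP-sensitive channel of pericytes with Abcc9, fell by 0.70 on the log2 scale in susceptible mice (SE 0.14, limma adjusted p = 0.000367). Its values there, 1.76, 1.84 and 1.60, lay below every control (1.96 to 2.64) and every resilient mouse (1.94 to 2.51). Kcnj2, the classical strong inward rectifier, fell by 0.53. Endothelial and pericyte markers were lower in 5 of 6 genes in susceptible against control mice (all genes 20.1%), with a list median of -0.40. Their summed level was 8.45 to 8.54 in susceptible and 8.71 to 8.87 in control mice. Abcc9 fell by 0.29, as did the vascular members Kcnmb1 (-0.67 ± 0.20) and Kcna5 (-0.66 ± 0.16), and the part of vascular cells in these values was not tested.

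Of the 13 voltage-gated alpha subunits from Kcna to Kcnd, 8 rose and 1 fell in susceptible against control B6 mice (all genes 20.5% and 20.1%). Against resilient mice 7 were higher and none lower (all genes 14.1% and 13.6%). Of the Kv3 genes, Kcnc1 rose by 0.57 ± 0.10 (limma adjusted p = 0.000113) and Kcnc4 by 0.59 ± 0.10, while Kcnc2 (0.10 ± 0.05) was not called. Kcnc1 had values of 7.08, 7.27 and 7.145 in susceptible mice, above all controls (at most 6.74), while the resilient mice spread from 6.42 to 7.08. Kcna3 rose by 0.64 ± 0.13 (limma adjusted p = 0.000564). The silent subunit Kcng1, which alters other voltage-gated channels, rose by 1.03 ± 0.23 (limma adjusted p = 0.00138), with 4.55, 4.91 and 4.69 in susceptible mice and 3.21 to 3.99 in controls. In resilient mice Kcnc1, Kcnc4, Kcna3 and Kcng1 were not called, with 0.09 ± 0.10 for Kcna3 and 0.11 ± 0.18 for Kcng1. The highest resilient mouse (Kcng1 4.62, Kcna3 3.755) reached the susceptible range of both genes.

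The M-current gene Kcnq5 rose by 0.21 ± 0.05 in susceptible mice. Among activity-gated channels, the SK channel gene Kcnn3 rose by 0.43 ± 0.08 and Kcnma1 by 0.24 ± 0.06 in susceptible mice. The leak channel Kcnk9 rose by 0.60 ± 0.09 (limma adjusted p = 1.27e-05). Auxiliary genes fell in 5 of 9 and rose in none (all genes 20.1% lower and 20.5% higher). Kcnip4 and Kcnab1 fell in both defeated groups, Kcnip4 by 0.28 (SE 0.05) in resilient and 0.24 (SE 0.07) in susceptible mice. Kcnab1 fell by 0.10 (SE 0.03) and 0.17 (SE 0.04). Kcnu1 (-0.54 ± 0.16) and Kcns3 (-0.43 ± 0.11) fell in susceptible mice, and Kcnh7 (-0.14 ± 0.04) and Kcnb2 (-0.13 ± 0.04) in resilient mice. All 6 controls were in the first sequencing set, and 7 of 8 resilient mice in the second. With the sequencing set in the model 2 members were called in resilient against control mice, both higher. The falls named for resilient mice were therefore not called in that fit.

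Set against resilient B6 mice directly, susceptible mice had higher Kcng1 (0.92 ± 0.23, limma adjusted p = 0.00779), Kcna3 (0.55 ± 0.12) and Kcnd1 (0.54 ± 0.14), a pore of the A-type current. Kcnj8 (-0.56 ± 0.13, limma adjusted p = 0.00645), Kcnj2 (-0.45 ± 0.14) and Kcnk13 (-0.33 ± 0.08) were lower. Kcnc1 (0.44 ± 0.10), Kcnc4 (0.47 ± 0.09) and Kcnc2 (0.13 ± 0.04) were higher as well, as was Kcnq3 (0.22 ± 0.08), while Kcnj9 (0.07) was not called.

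Inhibitory neuron markers were higher in 2 of 5 genes in susceptible against control B6 mice of the vHPC (all genes 20.5%), Slc32a1 (0.68) and Gad2 (0.26). Pvalb, which marks cells rich in Kv3 channels, was at -0.07 and not called. The inhibitory markers summed to 8.98 to 9.09 in susceptible and 8.76 to 8.89 in control mice. Oligodendrocyte markers were lower in 6 of 6 genes (median -0.90), and 3 of 5 microglia markers were lower along with Kcnk13 (-0.41 ± 0.09). Over all genes 20.1% were lower. Choroid plexus markers summed to 5.28 to 11.04 in controls and 4.61 to 6.32 in susceptible mice. The part of these cells in the channel values was not tested.

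Kcnk1 values of susceptible and resilient B6 mice did not overlap in the vHPC or in the mPFC. With the library set in the model Kcnk1 was called in neither region. In the vHPC its values were 6.18, 6.14 and 6.17 in susceptible mice, 6.37 to 6.67 (median 6.49) in controls and 6.33 to 6.55 (median 6.49) in resilient mice, with no overlap. It fell by 0.35 relative to controls (SE 0.06, limma adjusted p = 7.05e-05) and by 0.30 relative to resilient mice (SE 0.06, limma adjusted p = 0.00188). In the mPFC susceptible mice ranged from 6.05 to 6.32 (median 6.23), controls from 6.35 to 6.55 (median 6.46) and resilient mice from 6.33 to 6.55 (median 6.48), again without overlap. However, 5 of these 6 susceptible mice shared 1 mouse ID prefix, which no resilient mouse had. The remaining susceptible mouse, at 6.315, lay just below the resilient mice with its prefix, at 6.326 and 6.352. The mPFC differences were -0.24 ± 0.06 from controls (limma adjusted p = 0.0266) and -0.24 ± 0.06 from resilient mice (limma adjusted p = 0.0306). In the vHPC D2 controls, at 6.08 to 6.26, lay near the susceptible B6 mice. In the mPFC D2 controls, at 6.15 to 6.48, overlapped both the susceptible and the control B6 mice. In the BNST Kcnk1 was at 0.16 ± 0.12 in susceptible B6 mice and was not called. An antisense gene overlaps the Kcnk1 exons, and the strand used in counting is not given in the sources used here.

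**Figure D4:**
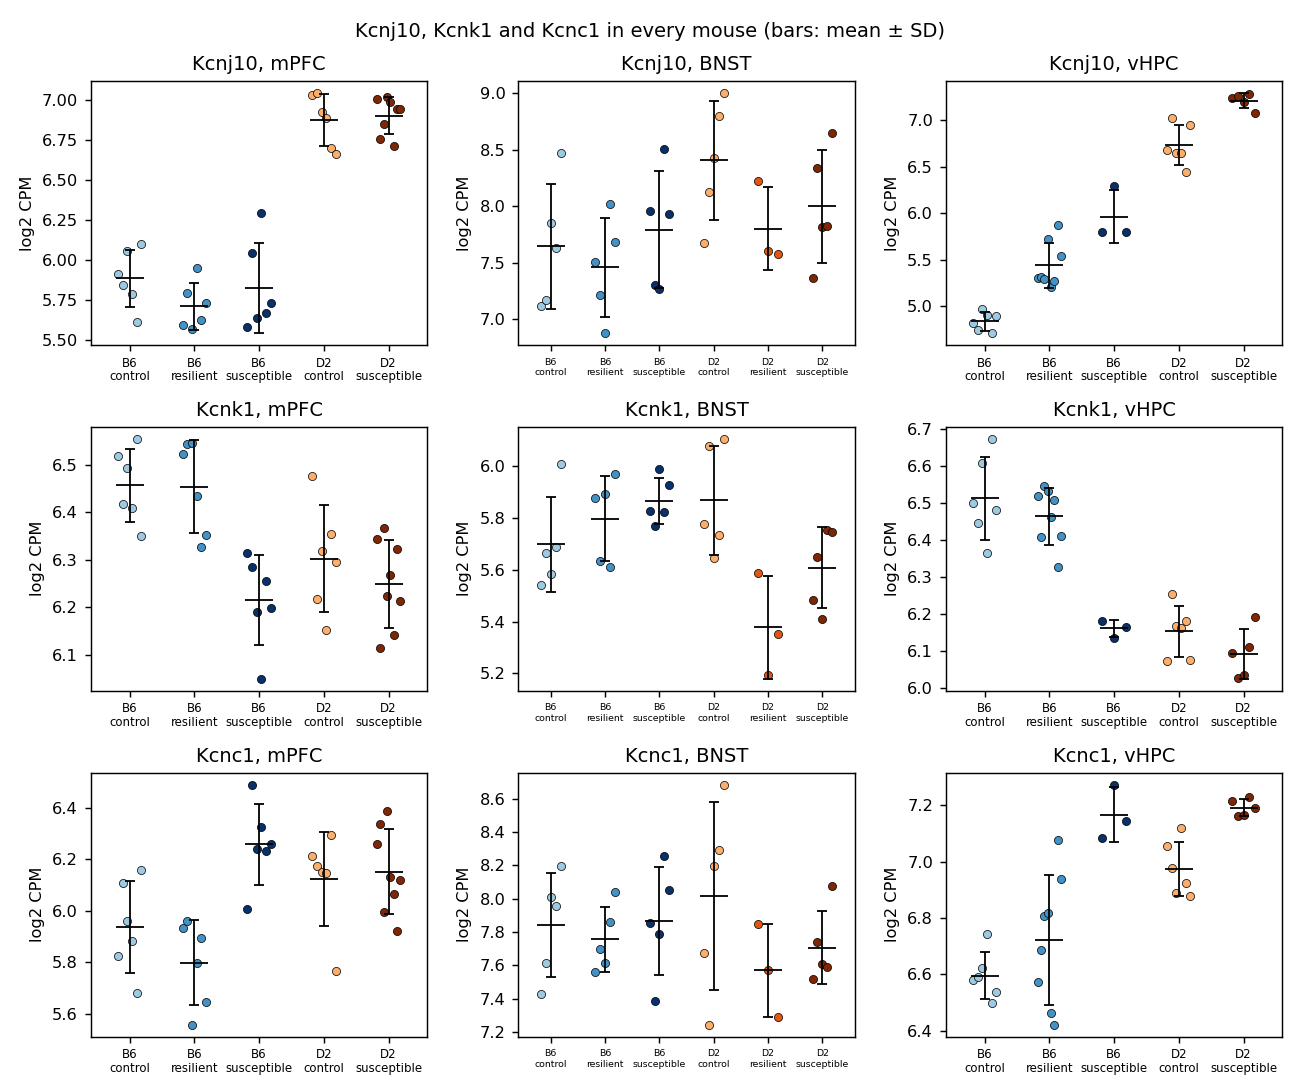
Level (y axis, log2 CPM) of Kcnj10, Kcnk1 and Kcnc1 in every mouse of each region and group (x axis), with the mean and SD of each group. In the vHPC Kcnj10 climbs from B6 controls (median 4.85) to susceptible D2 mice (median 7.24), and Kcnk1 of susceptible B6 mice lies below that of controls in the mPFC and vHPC but not in the BNST.

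In the mPFC, Kcnk1 was the only member called in susceptible against control B6 mice (1 of 74, against 2.22% of all genes). Against resilient mice 4 of 74 members (5.41%) were called, against 2.02% of all genes. Kcnk1 was lower, and Kcnc1 and Kcnh3 were among those that were higher. Kcnc1 ranged from 6.01 to 6.49 (median 6.25) in susceptible and from 5.56 to 5.96 (median 5.85) in resilient mice, without overlap, and differed by 0.46 ± 0.10 (limma adjusted p = 0.0304). Kcnh3 (Elk2), a channel of forebrain neurons, was 0.21 ± 0.05 higher (limma adjusted p = 0.0422), but its exons overlap Mcrs1 on the other strand. Against controls, Kcnc1 was at 0.32 ± 0.10 (limma adjusted p = 0.0689) and was not called.

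These mPFC calls rested on few mice. Leaving out 1 mouse of the compared groups at a time, Kcnk1 stayed under the threshold in 6 of 12 fits against controls and 4 of 12 against resilient mice, Kcnc1 in 6 and Kcnh3 in 2 of 12. The fold change of Kcnk1 stayed between -0.262 and -0.208 against controls. No member was called in either comparison with the library set in the model, with the mouse ID prefix in the model, or with only the groups compared. With the library set Kcnk1 was at -0.248 against controls (limma adjusted p = 0.0782) and -0.244 against resilient mice (limma adjusted p = 0.0955), and Kcnc1 at 0.467 (limma adjusted p = 0.084). With the prefix Kcnk1 was at -0.093 against controls (limma adjusted p = 0.864) and Kcnc1 at 0.221 against resilient mice (limma adjusted p = 1.0), and 5 of the 6 susceptible mice shared 1 prefix. Oligodendrocyte markers were lower in 5 of 6 genes in susceptible against control mice (median -0.79), where 2.22% of all genes were called in either direction. Their summed level was 9.41 to 10.07 against 9.93 to 10.87 in controls. Striatal markers summed to 6.13 to 7.25 in susceptible and 6.72 to 8.28 in control mice, with none of 6 called, and the part of either in these values was not tested.

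Resilient B6 mice showed no called member in the mPFC (limma, 0.0% of all genes called), and 1 of 74 had an unadjusted p under 0.05 (1.35%, all genes 3.86%). In D2 mice, susceptible against control, no member was called in the mPFC either (limma, 0.0% of all genes), and none had an unadjusted p under 0.05 (all genes 3.87%). The strain by susceptibility interaction, which compares the change with susceptibility in D2 with that in B6, called no member of 74 in the mPFC (limma, 0.0% of all genes), and 8 of 74 had unadjusted p-values below 0.05, against 9.32% of all genes.

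In the vHPC of D2 mice 3 of 76 members (3.95%) were called in susceptible against control mice, against 4.28% of all genes. Kcnj10 rose by 0.48 ± 0.12 (limma adjusted p = 0.0146), with 7.24, 7.26, 7.195, 7.28 and 7.08 in susceptible mice, all above the highest control (7.02). Kcnip4 fell by 0.21 (SE 0.06, limma adjusted p = 0.044), with 4.72, 4.95, 4.91, 4.75 and 4.92 below the 4.96 to 5.13 of controls. With the library set in the model none of the 3 was called, with 0.30 for Kcnj10 (limma adjusted p = 0.963) and -0.141 for Kcnip4 (limma adjusted p = 0.959). With the sequencing set, of which the second held 4 of 5 susceptible mice and 1 of 6 controls, 1 was called, and Kcnj10 was at 0.458 (limma adjusted p = 0.0962) and Kcnip4 at -0.134 (limma adjusted p = 0.412). Both genes were also called in the same direction in resilient and in susceptible against control B6 mice, as were 93.0% and 99.4% of all genes called in D2 mice. Of the B6 mice, 7 of 8 resilient mice were in the second sequencing set and all 6 controls in the first. With the sequencing set in the model no lower call remained in resilient against control B6 mice, so Kcnip4 was not called there.

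The interaction called none of 76 members in the vHPC, against 0.782% of all genes, and the 17 with an unadjusted p under 0.05 (22.4%) compare with 18.4% of all genes. It was -0.64 ± 0.18 for Kcnj10 (limma adjusted p = 0.0858) and 0.29 ± 0.08 for Kcnk1 (limma adjusted p = 0.0747). The call depended on the fit. With quantile normalization 3 members were called, among them Kcnj10 and Kcnk9, each with a smaller rise in D2, and fitting only the groups compared called 8 members, 7 of them with a lower change in D2 and Kcnk1 with a higher one.

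Susceptible against resilient B6 mice and D2 against B6 controls share no library. Of the 22 members called in the first of these vHPC comparisons, 15 (68.2%) were among the 48 called in the second (31.2% of these), and 15 of 15 had the same direction. They included Kcnj10, Kcnj16, Kcnc1, Kcnc4, Kcna3 and Kcnk9 on the higher side and Kcnj8, Kcnk1, Kcnk13 and Kcns2 on the lower side. Over all genes, 71.5% of the 5404 called in the first were called in the second, with 3735 of 3866 in the same direction. Controls of the 2 strains shared no preparation set, and only 1 set held both resilient and susceptible B6 mice.

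In the BNST no member was called in any comparison by edgeR, and DESeq2 called none outside the strain comparison. The edgeR background was 0.00571% of all genes in susceptible against resilient B6 mice and 0.0% in each of the other defeat comparisons and the interaction. At an unadjusted p under 0.05 there were 3 of 74 members (4.05%, all genes 1.87%) in resilient and 2 (2.7%, all genes 6.37%) in susceptible against control B6 mice, and 13 (17.6%, all genes 7.55%) in susceptible against resilient B6 mice. In D2 mice there were 8 of 74 (all genes 5.44%) in resilient and 6 (8.11%, all genes 6.03%) in susceptible against control mice, and 1 (1.35%, all genes 1.31%) in susceptible against resilient mice. The interaction had 7 (9.46%, all genes 11.4%). Without susceptible B6 replicate 3 the count stayed at 0 in the comparisons that used it. The median SD within groups over members was 0.514 here, against 0.178 in the mPFC and 0.123 in the vHPC. Over all genes it was 0.42, 0.151 and 0.141 in that order. The BNST values were not adjusted for batches, unlike those of the other regions, so region and processing cannot be told apart.

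The most members at an unadjusted p under 0.05 among the BNST defeat comparisons were in susceptible against resilient B6 mice, with differences of -1.53 ± 0.48 for Kcnj6 (edgeR adjusted p = 0.344), -1.15 ± 0.35 for Kcnk9 (edgeR adjusted p = 0.343) and -0.92 ± 0.27 for Kcnh7 (edgeR adjusted p = 0.336). Kcnj3, the GIRK1 partner of Kcnj6, was at -0.88 ± 0.36. The summed cortical excitatory markers were 3.47 to 9.62 in these resilient and 3.56 to 5.49 in the susceptible libraries, and their part in the differences was not tested. Between control strains Kcng1 was at -1.06 ± 0.34 and Kcnip1 at 0.91 ± 0.29 (edgeR adjusted p = 0.111 for both). DESeq2 called both, and so did edgeR without D2 control replicate 1, which then called 5 members. Without D2 control replicate 2 edgeR called 1, Kcnj9 (1.05).

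Other genes that handle potassium were followed as a separate list of 27, of which 24 or 25 were measured in a region. Between control strains 8 of 24 were higher in D2 (33.3%, all genes 13.4%) and 1 of 24 lower (all genes 14.4%) in the mPFC, and 10 of 25 were higher (40.0%, all genes 30.2%) and 7 lower (28.0%, all genes 29.1%) in the vHPC. Higher in D2 in both regions were Hcn2, an HCN channel gene (0.28 in each), and Slc12a5, a chloride exporter gene (0.20 and 0.38). Amigo1, an auxiliary subunit of Kv2 channels, was higher there too (0.22 and 0.21). In susceptible against control B6 mice of the vHPC 11 were higher (44.0%, all genes 20.5%), among them Slc12a5 (0.36). Another 6 of 25 were lower (all genes 20.1%), led by Slc12a2 (-0.55). In both vHPC comparisons the library set was tied to group. With the set in the model, calls over all genes fell to 1643 between control strains and to 202 in susceptible against control B6 mice. This list was not followed in that fit. In the mPFC Hcn2 (0.32) and Amigo1 (0.24) were higher in susceptible than in resilient B6 mice (all genes 2.02% called). None of the list was called against controls. With the mouse ID prefix in the model 0 genes of the whole region were called against resilient mice, so neither call held in that fit. In the BNST none of 24 was called by edgeR in any comparison.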

How the data were processed

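RNA-seq libraries were trimmed, cleared of duplicate reads with PRINSEQ, aligned to GRCm38 with STAR and counted over exons with HTSeq by the authors. The BNST values were deposited as raw counts. The mPFC and vHPC values were deposited by the authors as log2 CPM after voom, with library set (and sequencing set in the vHPC) already adjusted by ComBat, so those tests start from adjusted values and their standard errors leave out the cost of that step. The strand used in counting is not given in the sources used here, so genes overlapping on opposite strands cannot be told apart. Such genes overlap Kcnh3, Kcnh7, Kcnip4, Kcnj9 and Kcnk1.

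The limma 3.58.1 (mPFC, vHPC) and edgeR 4.0.16 quasi-likelihood (BNST) models in R 4.3.3 were fitted to all groups and genes of a region, with Benjamini-Hochberg adjustment and a threshold of 0.05. BNST genes needed 1 CPM in 6 libraries and were scaled by TMM. DESeq2 1.42.0 was an alternative, with other filters, scalings, covariates and left-out mice. The fits were run on simulated data without batch effects, which cannot show how library sets tied to group bear on the calls. Levels per length used the union of exons. Genes named were a list fixed by role, the top member of each subfamily by level, and the 3 highest and 3 lowest fold changes among called members of each comparison at a mean log2 CPM of at least 1, and any others were named after their values were seen. Some genes are not reported here, although counts and subfamily shares include them. Members and lists were chosen with earlier results of these data known.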

Additional observations from a re-analysis of the deposited data

Results flagged for a closer look

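In groups of 4 to 10 mice, 10 genes given mouse by mouse were screened for a highest or lowest mouse far from its neighbour (Dixon's test, 95% critical value). This marked 10 of 140 groups, where chance alone marks about 5%.

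In the BNST, susceptible B6 replicate 3 was apart in 4 genes, the library that also had the highest striatal marker sum. Its Kcnj16 level was 2.63 log2 CPM against 4.55 in the next mouse, and its Kcna3 (4.63 against 3.82), Kcng1 (6.79 against 5.39) and Kcnh3 (6.69 against 5.49) levels were above the others.

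In the mPFC, susceptible B6 replicate 4 was low in Kcnip4 (5.935 against 6.33). Kcnc1 was low in D2 control replicate 6 (5.77 against 6.145), Kcna3 was low in D2 control replicate 3 (3.58 against 3.715), and Kcng1 was low in D2 susceptible replicate 5 (4.02 against 4.38). In the vHPC, Kcnj8 was low in B6 control replicate 3 (1.96 against 2.39) and Kcng1 was high in D2 control replicate 4 (4.703 against 4.07).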

How the results depend on the processing

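Counts of called members are given here, and no change of direction was found among the 38 results followed by gene. With the library set as a covariate, members called fell to 0 in the mPFC in susceptible B6 mice against control (from 1) and resilient mice (from 4), to 0 in the vHPC in every defeat comparison (from 10, 37, 22 and 3) and to 6 between control strains of the vHPC (from 48), among them Kcnj9, Kcnj10, Kcnj11, Kcnk12 and Kcnk13. The mouse ID prefix, or fitting only the groups compared, left 0 in both mPFC comparisons, and a level filter gave 2 against controls. Fitting only the groups compared gave 5 in resilient and 7 in susceptible against resilient B6 mice of the vHPC, and 8 in the interaction, where quantile normalization gave 3. The sequencing set as covariate left 2 in resilient B6 and 1 in susceptible D2 mice. Sequencing set 1 alone, chosen after seeing the data, called 28 in susceptible B6 mice and 48 between strains. In the BNST, DESeq2 called 3 and library size without TMM 1 between strains, and the latter called 11 in the interaction, where it moved the median of all genes to 0.531.

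Leaving out 1 mouse at a time gave 0 to 3 (susceptible against control) and 0 to 6 (against resilient) in B6 mPFC, and 0 to 5 between BNST strains, with 5 without D2 control replicate 1. In the vHPC it gave 5 to 13 in resilient B6 mice (5 without B6 control replicate 6), 27 to 37 in susceptible B6 mice, 11 to 31 against resilient mice (11 without B6 susceptible replicate 2), 2 to 5 in D2 mice, 48 to 51 between strains and 0 to 1 in the interaction. No paired analysis was possible because replicate numbers only name mice. The mouse ID prefix, shared by mice of several groups, was fitted as a covariate in the mPFC and, chosen after seeing the data, in the vHPC and BNST. In the vHPC it gave 8 in resilient and 37 in susceptible B6 mice, 22 against resilient mice and 2 in D2 mice, where Kcnip4 was lost (limma adjusted p = 0.0508), and in the BNST it gave 0 in each comparison it could be fitted to. The deposited log2 values allowed no other normalization from counts, and the prefix could not be fitted between strains or for resilient D2 mice. Depth limits Kcnk5 and Kcnj14 in the BNST, with medians of 8 and 13.5 reads.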
